A study of Homo sapiens with 45 samples.

Results

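The response to 5 d of palbociclib (PB) was compared between IMR-32 and SH-SY5Y, a pair of established ADRN-type (adrenergic) neuroblastoma lines, by polyA RNA-seq. The comparison used 20 of the 45 libraries of the series: 5 control libraries and 5 libraries of cells kept in 1 μM PB for 5 d from each line, in the same serum-containing DMEM/F12 medium. IMR-32 carries amplified MYCN and MEIS1 and SH-SY5Y carries mutated ALK, but each genotype is represented by 1 line, so a genotype and the line that carries it cannot be told apart. Each replicate was another passage of the line, plated separately. Control cells were harvested on the day of the 24 h PB samples, so in both lines the 5 d libraries also come from later cultures than their controls. The quantity tested was, for each gene, the log2 fold change in IMR-32 (5 d PB against control) minus that in SH-SY5Y. A positive difference means a higher response in IMR-32 than in SH-SY5Y, whatever the sign of either. A difference, or a response within a line, was called at a Benjamini-Hochberg adjusted p under 0.05 in edgeR's quasi-likelihood test and a size over 0.5, with n = 5 libraries in every group, and rose, fell and differed are used only of values past both limits.

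PB inhibits CDK4 and CDK6, the kinases that partner D-type cyclins and phosphorylate the retinoblastoma protein RB. Unphosphorylated RB binds E2F transcription factors, and genes for DNA replication and mitosis are then repressed. Neuroblastoma arises from sympathoadrenal progenitors of the neural crest, and ADRN-type lines keep the transcription factors of that lineage while dividing. Leaving the cell cycle is part of normal neuronal differentiation, during which neurites grow and tubulins, neurofilaments, channels and synaptic proteins are made.

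The libraries held 16556335 to 23930236 counted reads, and 1 CPM, the level of a gene scaled to the library total, was 18.4 reads at the median. MYCN was counted at 1296 to 2218 CPM in the IMR-32 libraries and at 3.44 to 13.3 CPM in those of SH-SY5Y, and MEIS1 at 300.4 to 417 against 17.5 to 26 CPM. Of 8 adrenergic markers, 8 in IMR-32 and 7 in SH-SY5Y had a mean of at least 1 CPM, and they summed to 2220 to 3319 CPM in control and 3222 to 4213 CPM at 5 d in IMR-32, and to 4465 to 6063 CPM and 6120 to 8456 CPM in SH-SY5Y. The 7 mesenchymal markers in the table, 1 or 2 of which had no read in a group, summed to 574.6 to 1053 CPM in control and 264.6 to 436.7 CPM at 5 d in IMR-32, and to 1390 to 1842 CPM and 920.2 to 1091 CPM in SH-SY5Y. Markers of glia, blood, and endothelium with epithelium summed to at most 9.26, 5.11 and 3.65 CPM in any library. Replicate 5 of IMR-32 stood apart in both groups. Its root mean square log2 deviation from its group was 0.63 in control and 0.45 at 5 d, against 0.21 to 0.327 in the other 18 libraries. The IMR-32 control of replicate 5 held more YAP1 (17.4 CPM against 0.599 to 1.45 in the other IMR-32 controls), VIM and FN1, and less of the neuronal tubulin TUBB3 (246 CPM against 688 to 834). It was kept, and values without it, from both groups or from the controls alone, are given beside some of the results. In bulk RNA, fewer cells of a type and less RNA per cell cannot be told apart, here and below.

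The difference between the lines was called for 3263 of 15456 genes tested (21.1%). The response was higher in IMR-32 for 1666 genes (10.8%) and lower for 1597 (10.3%). Each line by itself responded about as broadly: 2625 genes rose (17%) and 2428 fell (15.7%) in IMR-32, and 2666 rose (17.2%) and 2500 fell (16.2%) in SH-SY5Y. Of these, 2357 genes were called in both lines in the same direction, 46.6% of the IMR-32 calls and 45.6% of the SH-SY5Y calls, and for 1924 of these no difference was called. Of the 3263 differences, 1096 belonged to genes called in IMR-32 alone, 1047 to genes called in SH-SY5Y alone, 433 to genes that moved the same way by different amounts, 458 to genes past the limits in neither line by itself, and 229 to genes that were called in both lines with opposite signs (1.48% of all genes tested). The median difference over all genes tested was 0.01. Without replicate 5 of IMR-32, 3094 of the 3263 differences were still called in the same direction.

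**Figure D1:**
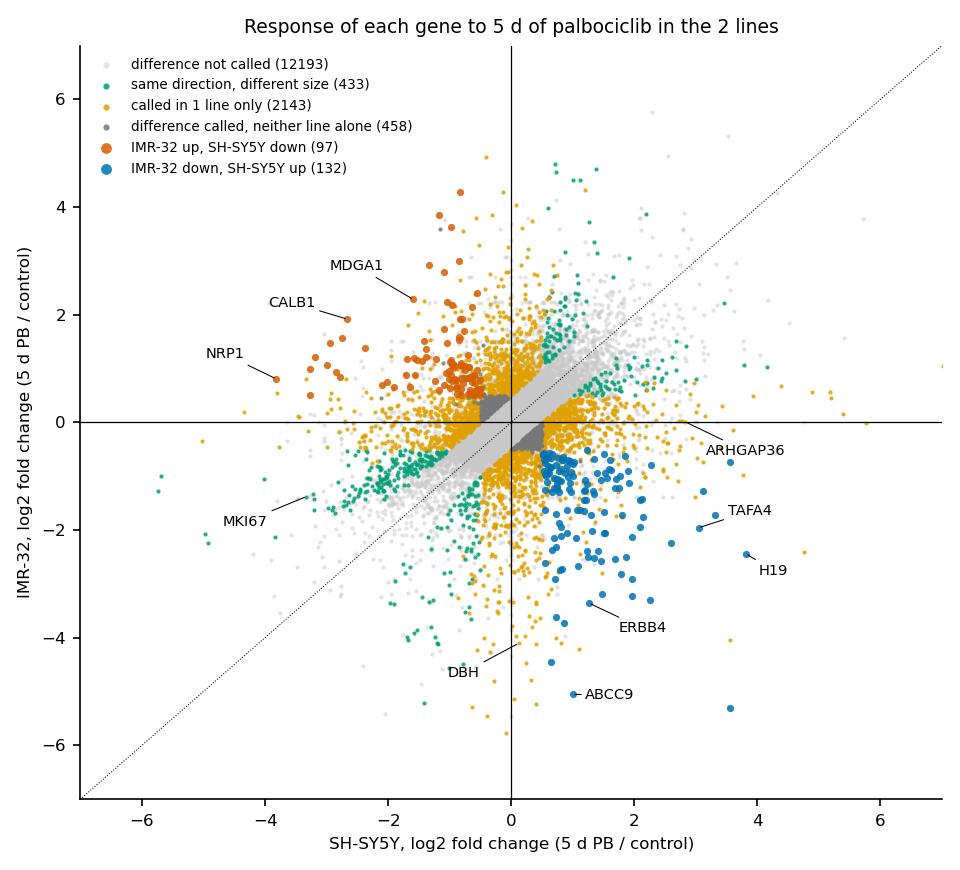
Each point is 1 of the 15456 genes tested, placed by its log2 fold change at 5 d of PB in SH-SY5Y (x axis) and in IMR-32 (y axis), with colours for the class of the difference between the lines and the dotted line at equal responses. The 97 orange and 132 blue points lie in the quadrants where the lines moved in opposite directions; 4 genes lie beyond the axes.

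Opposite responses that were higher in IMR-32 were found for 97 genes (0.628% of genes tested), and the 8 with the largest difference among those expressed in both lines and with separate libraries include guidance, adhesion and channel genes. The strongest was NRP1 (GRCh37, chr10:33466420-33625190, minus strand), which encodes neuropilin-1, a co-receptor for semaphorins and VEGF. NRP1 was counted at 97.3, 100.5, 98.8, 87.2 and 78.7 CPM in the IMR-32 controls (replicates 1 to 5) and 180.4, 158, 181, 188 and 114 CPM at 5 d, against 13.6, 8.05, 9.44, 5.39 and 9.83 and then 0.784, 0.614, 0.917, 0.112 and 0.966 CPM in SH-SY5Y. Every 5 d library of IMR-32 lay above every control and every 5 d library of SH-SY5Y lay below, so the groups did not overlap in either line, as was asked of the 8 genes (over all genes tested, the share without overlap was 36.7% in IMR-32, 44.7% in SH-SY5Y), and NRP1 ended near the limit of detection in SH-SY5Y. The log2 fold change was 0.81 ± 0.19 (SE) in IMR-32 and -3.82 ± 0.3 (SE) in SH-SY5Y, a difference of 4.63 ± 0.35 (SE, adjusted p = 5.98e-08), or 4.68 without replicate 5 of IMR-32.

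MDGA1 (GRCh37, chr6:37598455-37667082, minus strand) encodes a GPI-anchored adhesion protein that binds neuroligins at synapses. Its control levels were alike in the lines, at 4.6, 4.96, 5.06, 4.05 and 6.78 CPM in IMR-32 and 9.37, 3.89, 4.07, 4.63 and 6.13 CPM in SH-SY5Y. At 5 d MDGA1 stood at 25.4, 34.1, 19, 26.7 and 20.3 CPM in IMR-32 and at 2.07, 2.06, 1.01, 1.4 and 3.32 CPM in SH-SY5Y. The groups did not overlap within either line, and the difference was 3.87 ± 0.38 (SE, adjusted p = 6.18e-07). CALB1, the calcium-buffering protein calbindin, rose from 17.2, 17.5, 11.2, 17.3 and 7.81 to 67.9, 61.6, 42.5, 78.8 and 23.7 CPM in IMR-32. In SH-SY5Y CALB1 was scarce in control (1.39, 0.894, 0.626, 0.954 and 1.27 CPM) and lower again at 5 d (0, 0.0558, 0.386, 0.112 and 0.242 CPM), with 1 library at 0. The libraries of the lines therefore moved apart, with a difference of 4.58 ± 0.68 (SE, adjusted p = 6.82e-05), although the SH-SY5Y values rest on few reads.

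The other 5 genes of this kind with the largest differences were PDE7B, a cyclic AMP phosphodiesterase (2.92 in IMR-32, -1.33 in SH-SY5Y on the log2 scale), KCNJ12, an inward-rectifier potassium channel (0.7 in IMR-32, -2.1 in SH-SY5Y), KAZN, a desmosome-linked cytoskeletal protein (2.14 in IMR-32, -0.64 in SH-SY5Y), COL5A2, a fibrillar collagen chain (1.35 in IMR-32, -1.38 in SH-SY5Y), and RD3, a regulator of guanylate cyclase (1.91 in IMR-32, -0.8 in SH-SY5Y). Exons of KAZN overlap an antisense RNA on the opposite strand, and since no source names the strand that was counted, its value is uncertain. The same limit holds below for INHBA, ITGA4, TGFB1, GINS2, DNM1, SYT2, TUBB6 and ALK, and where an overlap is named. Over these 8 genes the difference ran from 2.71 (RD3) to 4.63 (NRP1), and from 2.62 to 4.68 without replicate 5 of IMR-32.

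Opposite responses in the other direction, lower in IMR-32, were found for 132 genes (0.854%). The largest belonged to H19 (GRCh37, chr11:2016396-2025782, minus strand), an imprinted long noncoding RNA that is abundant in fetal tissue. H19 was counted at 144, 97.7, 52.3, 116 and 54.9 CPM in the IMR-32 controls and 18.6, 30.4, 15.9, 14.3 and 7.79 CPM at 5 d. In SH-SY5Y it went from 1.81, 4.1, 2.76, 5.58 and 2.96 CPM to 66.8, 59.98, 71.1, 39.4 and 17.3 CPM. The order of the line means was thus exchanged, with every IMR-32 control above every IMR-32 library at 5 d and the reverse in SH-SY5Y, and the difference was -6.27 ± 0.59 (SE, adjusted p = 5.55e-07). At 24 h the log2 fold change of H19 was 0.14 in IMR-32 and 0.32 in SH-SY5Y, against -2.45 and 3.82 at 5 d.

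ABCC9 (GRCh37, chr12:21950323-22095477, minus strand) encodes SUR2, the regulatory subunit of ATP-sensitive potassium channels. IMR-32 held 6.59, 7.61, 8.22, 7.19 and 13.8 CPM in control and 0, 0.0545, 0.115, 0.329 and 0.784 CPM at 5 d, where 1 library had no read. In SH-SY5Y the levels were 13.6, 16.5, 13, 18.4 and 19.8 CPM and 24.5, 33.4, 32.1, 44.7 and 35.3 CPM. The 4 groups did not overlap within a line, and the difference of -6.06 ± 0.5 (SE, adjusted p = 1.13e-07) became -6.83 without replicate 5 of IMR-32, whose control was the highest of its group. TAFA4, a secreted chemokine-like peptide, showed the exchange seen for H19, from 4.51, 4.61, 4.74, 5.14 and 4.77 to 0.931, 0.981, 1.09, 1.04 and 2.13 CPM in IMR-32 and from 0.549, 0.526, 0.469, 0.668 and 0.423 to 6.1, 5.8, 5.94, 2.74 and 2.54 CPM in SH-SY5Y, a difference of -5.004 ± 0.39 (SE, adjusted p = 5.49e-08). Every SH-SY5Y control of TAFA4 lay under 1 CPM, so in that line TAFA4 reached the level asked of named genes only through the 5 d libraries.

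ERBB4 (GRCh37, chr2:212240442-213403565, minus strand) encodes a receptor tyrosine kinase for neuregulins. Its IMR-32 levels were 12.1, 12, 7.62, 11.8 and 2.3 CPM in control and 0.291, 1.31, 0.802, 1.04 and 1.06 CPM at 5 d, and its SH-SY5Y levels 1.01, 1.31, 1.56, 1.53 and 1.43 CPM and 5.99, 3.4, 3.67, 2.35 and 1.87 CPM. Replicate 5 was the lowest IMR-32 control but still above the IMR-32 libraries at 5 d, and the difference was -4.63 ± 0.57 (SE, adjusted p = 7.53e-06). The remaining 4 genes of this kind were TMEM63A, a mechanically gated ion channel (-3.74 in IMR-32, 0.86 in SH-SY5Y), SLC2A4, the insulin-responsive glucose transporter GLUT4 (-2.5 in IMR-32, 1.87 in SH-SY5Y), EVA1B, a membrane protein (-3.61 in IMR-32, 0.73 in SH-SY5Y), and HAPLN4, a link protein of perineuronal matrix (-2.38 in IMR-32, 1.42 in SH-SY5Y). TMEM63A and EVA1B share exonic bases with genes on the opposite strand and are uncertain for that reason. Over these 8 genes the difference ran from -3.8 (HAPLN4) to -6.27 (H19), and from -4.05 (HAPLN4) to -6.83 (ABCC9) without replicate 5 of IMR-32. Without that replicate the number of genes lower in IMR-32 and opposite was 200 in place of 132.

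**Figure D2:**
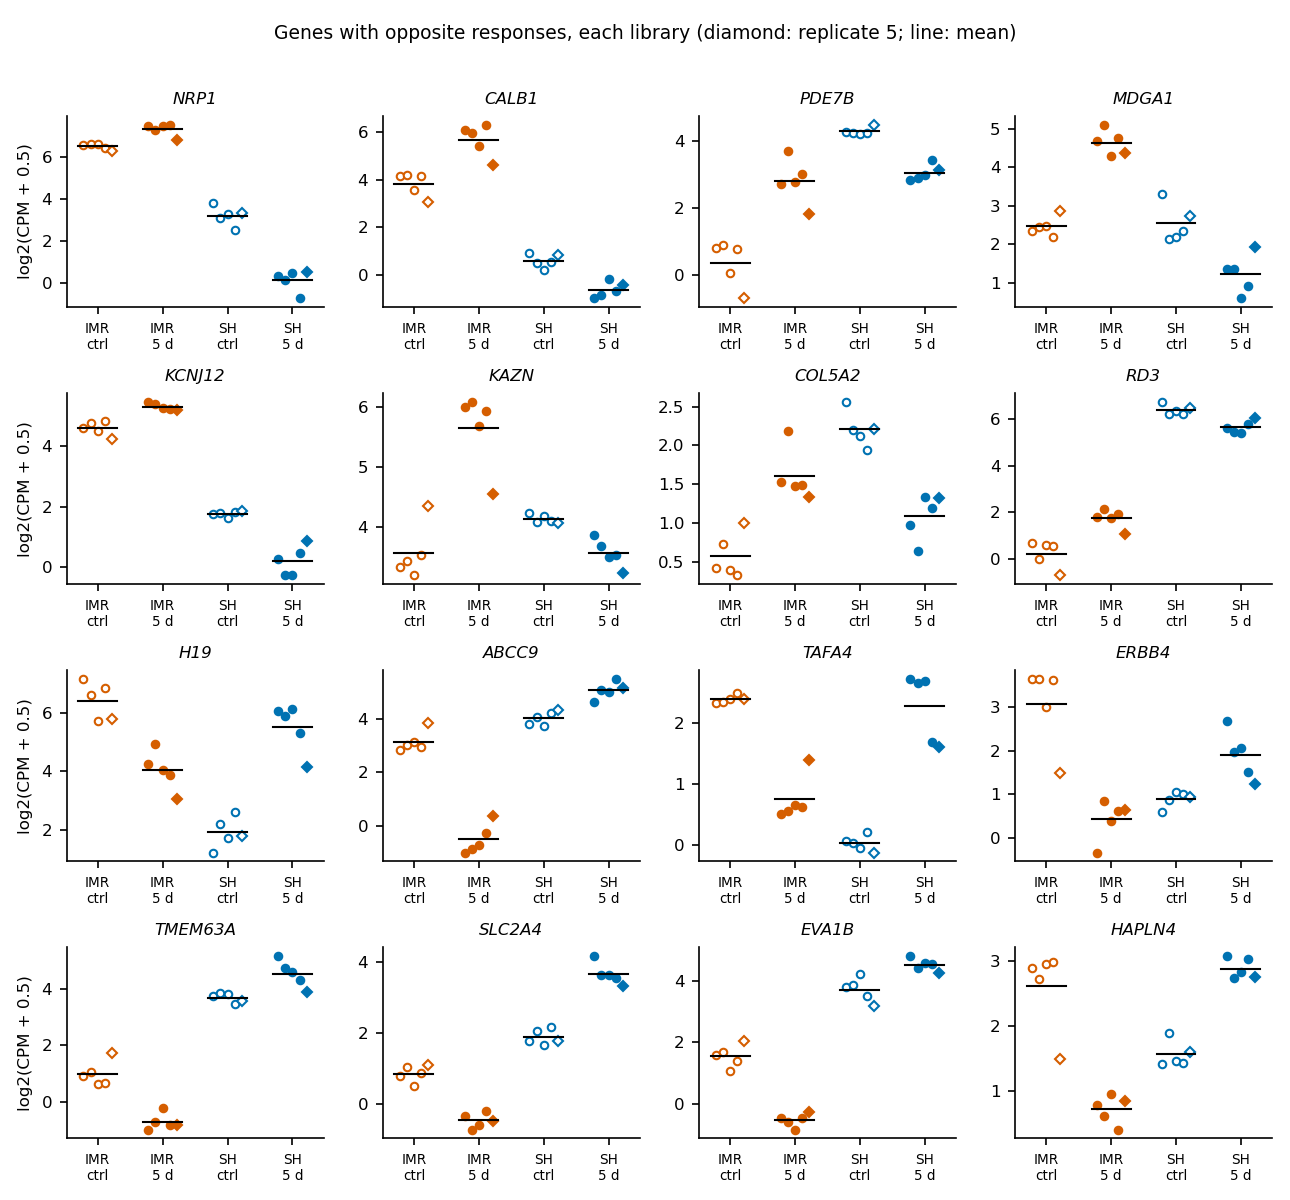
Level of the 16 genes with the largest opposite responses in each library, as log2(CPM + 0.5); orange for IMR-32, blue for SH-SY5Y, open symbols for control and filled for 5 d of PB, diamonds for replicate 5 and black lines for the mean of 5 libraries. In every panel the means move in opposite directions in the lines and control and 5 d libraries of a line lie apart, as the choice of these genes required.

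A further line, SK-N-BE(2)C, was treated for 7 d, and its libraries take no part in the comparison above. Since the days on PB differ, its values stand only beside the others. Of the 97 genes that rose in IMR-32 and fell in SH-SY5Y, 79 were tested in SK-N-BE(2)C, where 20 rose and 18 fell (median log2 fold change 0.141). Of the 132 that moved the other way, 96 were tested, and 34 rose and 15 fell (median 0.225), where 24.7% of all 13776 genes tested in SK-N-BE(2)C rose and 21.7% fell. Among the leading genes, SK-N-BE(2)C had log2 fold changes of -0.59 for NRP1, 0.62 for MDGA1, -2.39 for H19, 0.8 for ABCC9 and 0.65 for ERBB4.

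Genes that moved in 1 line and stayed within 0.25 of no change in the other included a central enzyme of the adrenergic phenotype. DBH (GRCh37, chr9:136501485-136524451, plus strand) encodes dopamine beta-hydroxylase, which makes noradrenaline from dopamine. DBH was counted at 35.2, 33.3, 11.7, 37.7 and 9.48 CPM in IMR-32 controls and 1.11, 1.74, 1.49, 0.932 and 2.24 CPM at 5 d, a log2 fold change of -4.11 ± 0.4 (SE). In SH-SY5Y, which held far more of it, the levels were 1409.7, 1719.5, 1353, 2212 and 1806 CPM and 1322, 1824, 1977, 2485 and 2052 CPM, with overlapping libraries and a log2 fold change of 0.12 ± 0.29 (SE). The difference was -4.23 ± 0.5 (SE, adjusted p = 5.61e-06), with the limit that an antisense transcript overlaps DBH. The other leading genes that fell in IMR-32 only were NRTN, the neurotrophic factor neurturin (-3.78 in IMR-32, 0.02 in SH-SY5Y), EGFL7, a secreted vascular factor (-3.34 in IMR-32, 0.03 in SH-SY5Y), and LTBP1, which binds latent TGF-beta (-3.55 in IMR-32, -0.22 in SH-SY5Y). Without replicate 5 of IMR-32 the difference of NRTN went from -3.8 to -5.92, and that of HMCN2, a gene near 0 in IMR-32 controls, from 3.96 to 5.24.

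SH-SY5Y alone raised ARHGAP36, a GLI activator and inhibitor of protein kinase A. Its SH-SY5Y levels were 212, 292, 251, 239 and 177 CPM in control and 1493, 1906, 2287, 1676 and 1299 CPM at 5 d. In IMR-32 the levels were 72.6, 80.1, 132, 69.3 and 128 CPM and 57.1, 39.2, 142, 52.3 and 199 CPM, wholly overlapping, and the difference was -2.81 ± 0.5 (SE, adjusted p = 3.45e-04). CLSTN2, a postsynaptic calsyntenin (0.2 in IMR-32, 3.002 in SH-SY5Y), RASGRP2, a Rap activator (0.04 in IMR-32, 2.36 in SH-SY5Y), and the microRNA host gene MIR7-3HG (0.02 in IMR-32, 2.72 in SH-SY5Y) rose in SH-SY5Y only as well. The leading genes that fell in SH-SY5Y only were the protease PRSS23 (0.1 in IMR-32, -3.46 in SH-SY5Y, uncertain for an overlapping gene), the matrix glycoprotein TNC (0.22 in IMR-32, -2.55 in SH-SY5Y), the receptor phosphatase PTPRD (0.03 in IMR-32, -2.7 in SH-SY5Y) and SOWAHA (-0.13 in IMR-32, -2.67 in SH-SY5Y). Those that rose in IMR-32 only included the noncoding LINC00342 (2.19 in IMR-32, -0.02 in SH-SY5Y). HMCN2 (0.708 to 11.3 CPM in IMR-32, 3.44 to 3.81 CPM in SH-SY5Y), ZAR1 (0.205 to 1.4 CPM in IMR-32, 1.22 to 1.16 CPM in SH-SY5Y) and the membrane-bound chemokine CX3CL1 (0.357 to 1.89 CPM in IMR-32, 13.9 to 14.3 CPM in SH-SY5Y) also rose in IMR-32 only, but their means were under 1 CPM in IMR-32 controls and they reached the level asked of named genes only through the 5 d libraries.

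Genes that moved the same way by different amounts did so most often by falling further in SH-SY5Y. Of the 433, 186 fell further in SH-SY5Y and 96 fell further in IMR-32, while 82 rose further in IMR-32 and 69 rose further in SH-SY5Y. The leading genes that rose further in IMR-32 were CREB5, a CREB family transcription factor (3.17 in IMR-32, 0.87 in SH-SY5Y), TTC9B (3.35 in IMR-32, 1.34 in SH-SY5Y) and CCDC184 (2.43 in IMR-32, 0.67 in SH-SY5Y). TMOD1, an actin-capping tropomodulin, was near 0 in IMR-32 controls (0.0497 to 1.4 CPM in IMR-32, 236 to 410.1 CPM in SH-SY5Y) and shares exonic bases with a gene on the opposite strand. COX6B2 (1.03 in IMR-32, 4.16 in SH-SY5Y), the neuronal adhesion molecule ICAM5 (0.8 in IMR-32, 2.995 in SH-SY5Y) and the cytokine-receptor kinase JAK3 (0.98 in IMR-32, 2.68 in SH-SY5Y) rose further in SH-SY5Y, as did BANF1P2, a pseudogene whose reads could belong to its parent gene. ARHGEF26, a RhoG exchange factor (-4.09 in IMR-32, -1.21 in SH-SY5Y), the protocadherin PCDH18 (-3.99 in IMR-32, -1.25 in SH-SY5Y) and the formin DAAM2 (-3.81 in IMR-32, -1.3 in SH-SY5Y, with an overlap on the opposite strand) fell further in IMR-32. The mitochondrial dehydrogenase ACADL (-2.08 in IMR-32, -4.98 in SH-SY5Y), the receptor FLT4 (-2.25 in IMR-32, -4.93 in SH-SY5Y) and PRTFDC1 (-0.53 in IMR-32, -2.49 in SH-SY5Y) fell further in SH-SY5Y.

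The same genes were read by function in 50 lists. Members called higher or lower in IMR-32 are counted against the background of 10.8% and 10.3% of all genes tested. Among lists with 10 or more tested members, the largest shares of higher calls belonged to the stathmins, tubulins and neurofilaments, cell division and DNA replication, and the largest share of lower calls to WNT signalling. Small counts are unsteady, since 43 of the 100 counts of higher or lower members moved by over 1.5 times without at least 1 library, 39 of them counts of 5 or fewer.

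**Figure D3:**
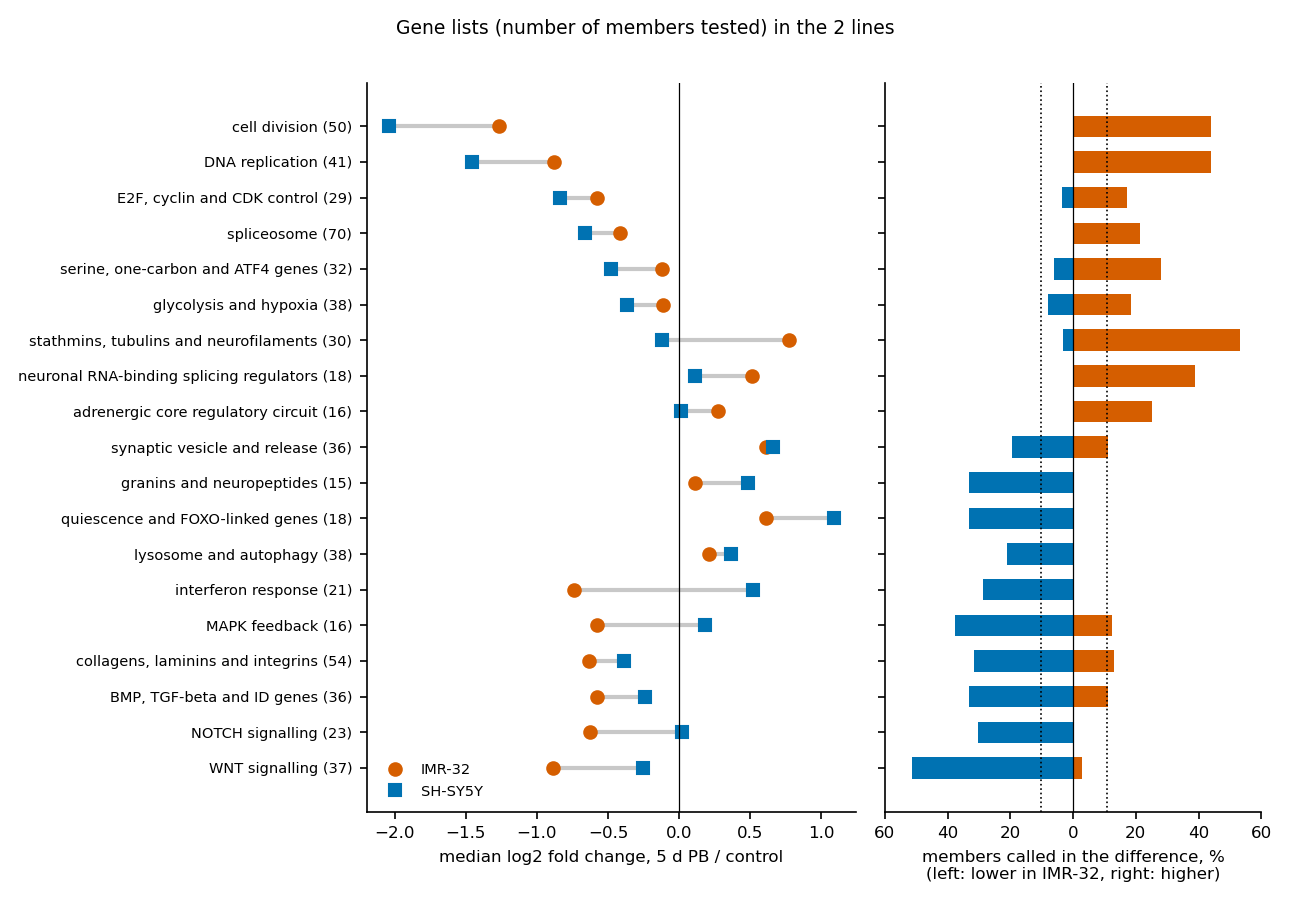
For 19 of the lists, the left panel shows the median log2 fold change at 5 d in IMR-32 (orange circle) and SH-SY5Y (blue square), and the right panel the percentage of tested members whose difference was called higher (orange, to the right) or lower (blue, to the left) in IMR-32, with dotted lines at the 10.8% and 10.3% of all genes. Cell division had lower medians in SH-SY5Y (-2.04) than in IMR-32 (-1.27), and WNT signalling the reverse (-0.25 and -0.89).

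All 50 genes of the cell division list (kinetochore, spindle, mitotic kinase and cytokinesis genes) fell in both lines at 5 d, and the median fell further in SH-SY5Y. The median log2 fold change was -1.27 in IMR-32 but -2.04 in SH-SY5Y, and the difference was called for 22 members (44%), each higher in IMR-32, with 0 lower. MKI67, the proliferation antigen Ki-67, was counted at 631, 592, 411, 467 and 777 CPM in IMR-32 controls and 219, 186, 201, 222 and 293 CPM at 5 d, against 820.4, 573, 524, 789.9 and 745 CPM and then 11.3, 46.9, 69.8, 116 and 113 CPM in SH-SY5Y. Control levels of MKI67 overlapped between the lines, and at 5 d every IMR-32 library lay above every SH-SY5Y library, a difference of 1.95 ± 0.53 (SE, adjusted p = 0.00867). MYBL2, the MYB family member of the complex that activates mitotic genes, had 237, 162, 229, 198 and 220.2 CPM at 5 d in IMR-32 and 13, 27.5, 52.6, 63.2 and 83.1 CPM in SH-SY5Y, from 445 and 324 CPM on average in control. The mitotic kinase PLK1 fell from 139 to 47.2 CPM in IMR-32 and from 178 to 24.8 CPM in SH-SY5Y, a difference of 1.323 ± 0.41 (SE, adjusted p = 0.0196).

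The number of calls depended on single libraries of both lines. Averaged over the cell division list, the log2 change from control was -1.51 to -0.83 in the 5 IMR-32 libraries at 5 d and -3.09 to -1.45 in the 5 of SH-SY5Y, and the ranges met. Replicate 1 of SH-SY5Y was the lowest and replicate 5 the highest of its group. The number of cell division genes called higher in IMR-32 was 11 without SH-SY5Y replicate 2 at 5 d and 38 without replicate 5, and it was 20 without replicate 5 of IMR-32 in both groups. It was 13 or 14 without IMR-32 control replicate 1, 2 or 4, IMR-32 replicate 5 at 5 d, or SH-SY5Y control replicate 1 or 5. At 24 h the list medians were -2.87 in IMR-32 and -2.99 in SH-SY5Y, both lower than at 5 d, with the difference called higher in IMR-32 for 18 and lower for 3 of the 50 members at that time. The 24 h difference was 1.58 for MKI67 (adjusted p = 0.0327) and 1.86 for PLK1 (adjusted p = 2.5e-04). By library at 24 h, the cell division level lay at -2.89 to -2.69 in IMR-32 and at -3.40 to -2.85 in SH-SY5Y.

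**Figure D4:**
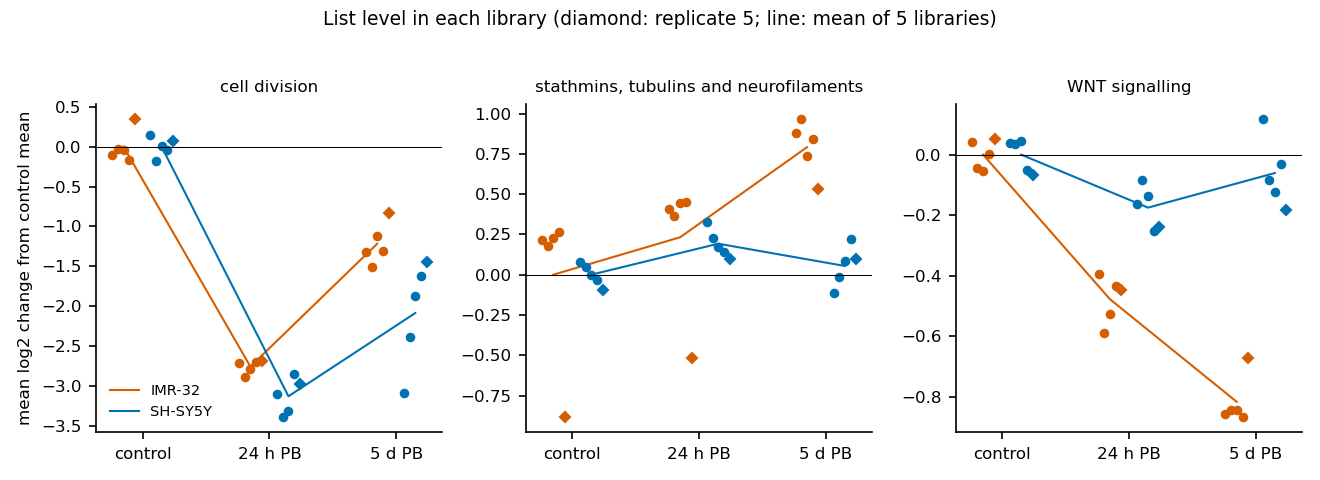
Mean log2 change of all tested members from the mean of the line's own controls, for the cell division list, the stathmins, tubulins and neurofilaments list and the WNT signalling list, in each library of control, 24 h and 5 d of PB (IMR-32 orange, SH-SY5Y blue, diamonds for replicate 5, lines through the means). Cell division was lowest at 24 h in both lines and at 5 d spread from -3.09 to -1.45 in SH-SY5Y, whereas WNT signalling kept falling in IMR-32 to between -0.87 and -0.67 at 5 d.

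Many of these genes share a short promoter sequence, the cell cycle homology region TTTGAA, through which the DREAM complex is known to repress mitotic genes in resting cells. In the 250 bases before the RefSeq start (GRCh38.p14), searched on both strands, TTTGAA was present in 22 of the 42 cell division promoters that could be read (52.4%) and in 941 of 11563 promoters of all genes tested (8.14%). A match is a description of the letters and not evidence of binding. No match in the last 120 bases was listed for MYBL2, also described above, so its sequence is not shown. The last 120 bases before the start are shown for MKI67 and PLK1, in the direction of the gene, with the matches in capitals.
MKI67 (chr10:128126424-128126543, minus strand): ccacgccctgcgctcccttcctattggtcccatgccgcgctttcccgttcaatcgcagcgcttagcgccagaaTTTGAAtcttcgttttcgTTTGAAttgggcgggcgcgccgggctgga
PLK1 (chr16:23678769-23678888, plus strand): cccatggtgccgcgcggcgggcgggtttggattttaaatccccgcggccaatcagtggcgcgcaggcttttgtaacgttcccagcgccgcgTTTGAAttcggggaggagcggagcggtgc
MKI67 holds 2 copies in this stretch and PLK1 holds 1. PLK1 and MKI67 differed between the lines in the same direction, while other carriers of the motif include members for which no difference was called.

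DNA replication genes also had a lower median in SH-SY5Y than in IMR-32 at 5 d. Of 41 members, 36 fell in IMR-32 and 41 fell in SH-SY5Y (medians -0.88 and -1.46), and the difference was called for 18 (43.9%), each higher in IMR-32. Members named here were RRM2, the small subunit of ribonucleotide reductase (-1.43 in IMR-32, -3.2 in SH-SY5Y), and the GINS helicase subunit GINS2 (-1.05 in IMR-32, -2.3 in SH-SY5Y). The count lay between 12 and 25 without any 1 library. At 24 h the order of the DNA replication medians was the other way (-2.36 in IMR-32, -1.96 in SH-SY5Y), with 2 members called higher and 6 lower in IMR-32. Of 29 genes of E2F, cyclin and CDK control, 5 (17.2%) were higher and 1 (3.45%) lower, E2F4, a repressor E2F (-0.31 in IMR-32, 0.25 in SH-SY5Y, past both limits in neither line alone). The count of higher members was 8 without the IMR-32 control of replicate 5 and 9 without SH-SY5Y replicate 5 at 5 d. E2F1 fell less in IMR-32 (302 to 183 CPM in IMR-32, 108 to 37.9 CPM in SH-SY5Y, a difference of 0.83, adjusted p = 0.0181), as did CDC25A, a CDK phosphatase (1.03, adjusted p = 0.00993), and RBL1, the RB relative p107 (0.87, adjusted p = 0.011).

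Genes for CDK4, CDK6, RB, p21 and cyclin D1, which act upstream of E2F, were read singly. CDK4 (-0.55 in IMR-32, -0.35 in SH-SY5Y), RB1 (-0.39 in IMR-32, -0.29 in SH-SY5Y) and CDKN1A, the CDK inhibitor p21 (-0.58 in IMR-32, -0.94 in SH-SY5Y), were not called for a difference. For CDK6 the difference was 0.4 (adjusted p = 0.0304), under the limit on size, and it was not called. CCND1, the D-type cyclin, rose in both lines and more in IMR-32, 1259 to 3255 CPM in IMR-32, 1518 to 2719 CPM in SH-SY5Y, a difference of 0.57 ± 0.11 (SE, adjusted p = 6.16e-04). MYCN, abundant in IMR-32 and scarce in SH-SY5Y, was called in neither line (0.31 in IMR-32, 0.28 in SH-SY5Y). CDK4, CDK6, CCND1 and MYCN overlap exons on the opposite strand.

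Splicing factors, which process messenger RNA, were read as 2 lists. Of 70 spliceosome genes, 26 fell in IMR-32 and 45 fell in SH-SY5Y (medians -0.41 and -0.66), and 15 (21.4%) were higher in IMR-32 with 0 lower. The leading member, SRSF1, a general SR splicing factor, was counted at 545, 581, 614, 566 and 816 CPM in IMR-32 controls and 425, 424, 473, 468 and 463 CPM at 5 d, and at 655, 635, 638, 648 and 662 CPM and 183, 222, 256, 279 and 325 CPM in SH-SY5Y. All libraries at 5 d lay below the controls in both lines, the IMR-32 control of replicate 5 was the highest of its group, and the IMR-32 response of -0.49 was short of the limit on size. SRSF1 differed by 0.93 ± 0.18 (SE, adjusted p = 6.14e-04), TRA2A by 0.88 (adjusted p = 9.25e-04) and SRSF7 by 0.85 (adjusted p = 0.0075). The count for the list was 8 without SH-SY5Y replicate 1 at 5 d and 20 without the IMR-32 control of replicate 5. Of the second list, 7 of 18 neuronal RNA-binding splicing regulators (38.9%) were higher in IMR-32 and 0 lower, among them NOVA1 (1.57 in IMR-32, 0.09 in SH-SY5Y) and CELF4 (1.2 in IMR-32, 0.34 in SH-SY5Y), which rose in IMR-32 only, and ELAVL2 (-0.22 in IMR-32, -1.51 in SH-SY5Y), which fell in SH-SY5Y only.

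The neuronal cytoskeleton separated the lines. The list named for stathmins, tubulins and neurofilaments also holds genes outside these families, such as GAP43. Of its 30 members, 21 rose and 4 fell in IMR-32, and 6 rose and 6 fell in SH-SY5Y (medians 0.78 and -0.12). The difference was called higher in IMR-32 for 16 (53.3%) and lower for 1, TUBB6, a broadly expressed tubulin (-2.94 in IMR-32, -1.89 in SH-SY5Y). The growth cone protein GAP43 led the list. It was counted at 43.5, 40.7, 55.5, 51.8 and 15.5 CPM in IMR-32 controls and 169, 205, 143, 152 and 104 CPM at 5 d, and at 107, 92.6, 109, 79.9 and 94.6 CPM and 68.9, 63.5, 79.2, 102 and 84.2 CPM in SH-SY5Y. GAP43 rose without overlap in IMR-32, where replicate 5 was the lowest of both groups, its SH-SY5Y libraries overlapped, and the difference was 2.21 ± 0.33 (SE, adjusted p = 7.64e-05).

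TUBB3, the neuronal beta-tubulin, stood at 819.9, 753, 688, 834 and 246 CPM in IMR-32 controls and 1467, 1515, 1144, 1295 and 946 CPM at 5 d, and at 512, 525.7, 508, 496 and 461 CPM and 355, 427, 547, 539 and 560.3 CPM in SH-SY5Y. The low IMR-32 control is replicate 5, and the TUBB3 difference of 1.01 ± 0.32 (SE, adjusted p = 0.0225) was 0.89 without that replicate. Peripherin, PRPH, rose in both lines (2.32 in IMR-32, 0.61 in SH-SY5Y), and the tubulin TUBB2A rose in IMR-32 only (1.2 in IMR-32, -0.14 in SH-SY5Y, overlapping a gene on the opposite strand). The microtubule-associated protein MAP1B, chosen after its values were seen, went from 1612, 1594, 1282, 1296 and 1246 to 2626, 2995, 2261, 3090.1 and 2605 CPM in IMR-32 and from 1033, 798, 788, 963 and 931 to 772, 899.7, 776, 813 and 781 CPM in SH-SY5Y.

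A pair of neurofilament genes, NEFM and NEFL, also named after their values were seen, moved in opposite directions. NEFM, the medium neurofilament, was counted at 129.6, 121, 134, 129 and 99.8 CPM and 230.0, 235, 175, 193 and 161 CPM in IMR-32 and at 171, 131, 160.1, 157 and 155 CPM and 60.8, 64.3, 79.3, 91 and 143 CPM in SH-SY5Y. IMR-32 libraries at 5 d were all above control, while in SH-SY5Y replicate 5 at 5 d lay among the controls and the other 4 below them. NEFM differed by 1.56 ± 0.26 (SE, adjusted p = 1.63e-04) and NEFL (0.51 in IMR-32, -0.82 in SH-SY5Y) by 1.33 (adjusted p = 0.00191). Not all of the list parted the lines. STMN4 rose by 3.41 ± 0.39 (SE) in IMR-32 and 2.92 ± 0.39 (SE) in SH-SY5Y with no difference called (0.49, adjusted p = 0.517). STMN2, at 1.38 in IMR-32, 0.55 in SH-SY5Y, was not called either (0.82, adjusted p = 0.417). The count of 16 lay between 15 and 17 without any 1 library, and was 19 without replicate 5 of IMR-32 in both groups.

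**Figure D5:**
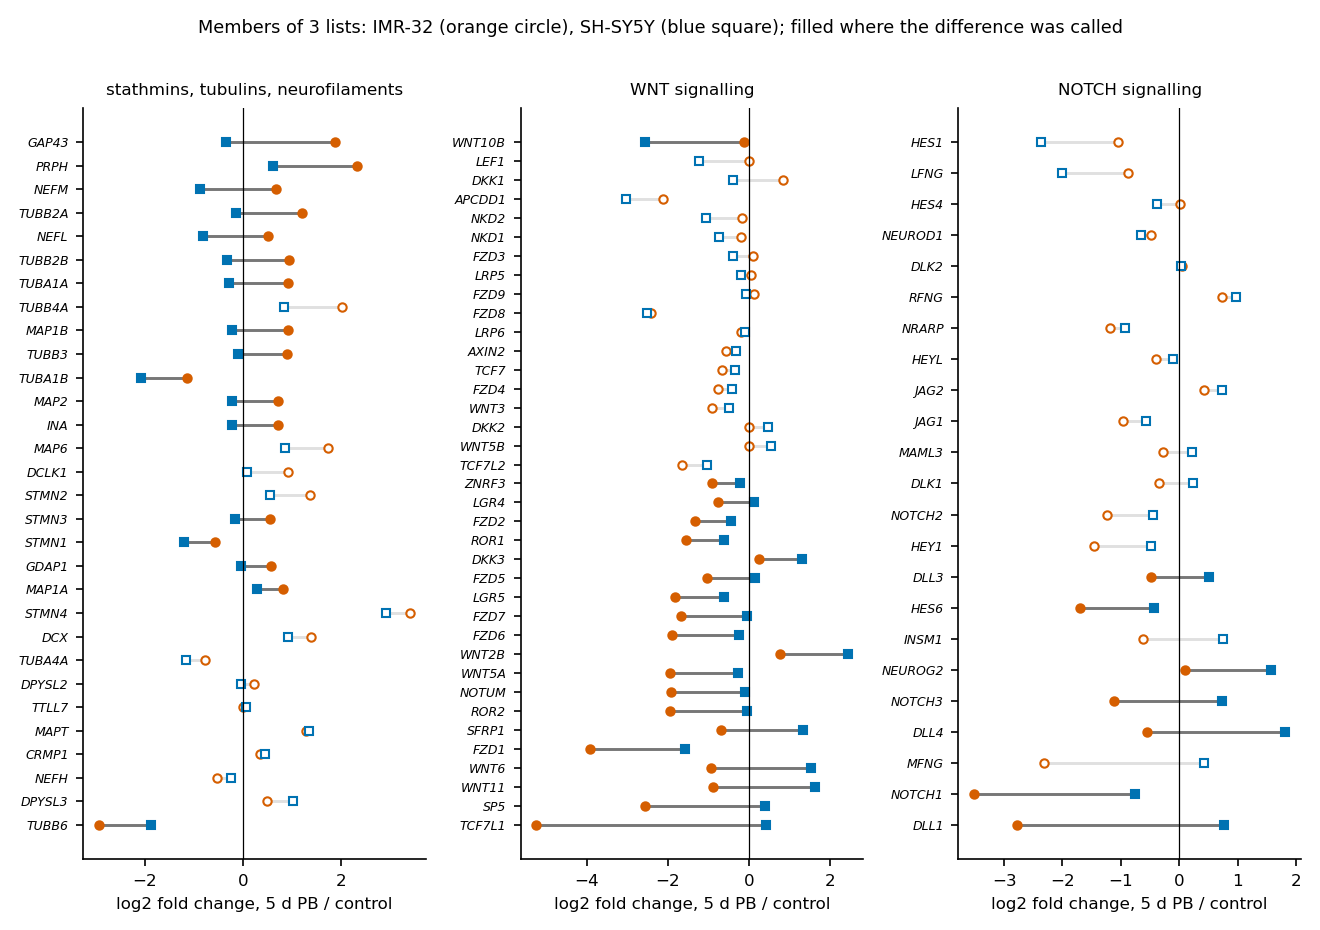
Log2 fold change at 5 d in IMR-32 (orange circles) and SH-SY5Y (blue squares) of every tested member of 3 lists, the stathmins, tubulins and neurofilaments, WNT signalling and NOTCH signalling, ordered by the difference between the lines, with filled symbols where the difference was called. In the first panel the filled circles lie mostly right of the squares (16 higher, 1 lower), and in the WNT and NOTCH panels mostly left (19 and 7 lower, 1 and 0 higher).

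More WNT signalling genes were called lower in IMR-32 than higher, among them ligands, receptors and a nuclear factor. WNT ligands bind frizzled and LRP receptors at the cell surface, and beta-catenin then acts with TCF and LEF factors on target genes, several of which feed back on the pathway. Of 37 WNT signalling genes, 24 fell and 1 rose in IMR-32, and 10 fell and 5 rose in SH-SY5Y (medians -0.89 and -0.25). The difference was called lower for 19 (51.4%) and higher for 1, the ligand WNT10B (-0.13 in IMR-32, -2.56 in SH-SY5Y, at a mean of 0.158 CPM in SH-SY5Y controls). The lower count lay between 17 and 20 without any 1 library. Averaged over the WNT signalling list, the log2 change from control was -0.87 to -0.67 in the IMR-32 libraries at 5 d and -0.18 to 0.12 in those of SH-SY5Y, so the lines did not overlap. At 24 h the corresponding ranges were -0.59 to -0.39 and -0.25 to -0.08.

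Among the WNT genes the transcriptional repressor TCF7L1 had the largest difference. TCF7L1 was counted at 6.85, 4.96, 5.61, 5.6 and 17.9 CPM in IMR-32 controls and 0, 0.163, 0.229, 0.11 and 0.56 CPM at 5 d, where 1 library had no read. In SH-SY5Y TCF7L1 was counted at 11.2, 20.7, 16.5, 14.1 and 10.7 CPM and 20.4, 23.4, 23.1, 18.9 and 15.9 CPM. The highest IMR-32 value in each group was replicate 5, and the difference was -5.65 ± 0.6 (SE, adjusted p = 1.94e-06), or -5.88 without it. The frizzled receptor FZD1 fell in both lines (-3.92 in IMR-32, -1.58 in SH-SY5Y), while the ligand WNT6 fell in IMR-32 and rose in SH-SY5Y (-0.94 in IMR-32, 1.52 in SH-SY5Y). Receptors and co-receptors named after their values were seen include FZD7 (-1.68 in IMR-32, -0.06 in SH-SY5Y), the WNT5A receptor ROR2 (-1.94 in IMR-32, -0.05 in SH-SY5Y) and the R-spondin receptor LGR5 (-1.82 in IMR-32, -0.62 in SH-SY5Y), and the secreted inhibitor SFRP1 moved in opposite directions (-0.69 in IMR-32, 1.34 in SH-SY5Y).

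NOTCH signalling, in which ligands of the DLL and JAG families on a neighbouring cell activate NOTCH receptors and hold progenitors undifferentiated, was lower in IMR-32 for 7 of 23 genes (30.4%) and higher for 0. The receptor NOTCH1 (GRCh37, chr9:139388885-139440500, minus strand) was counted at 92.2, 86, 45.1, 82.9 and 65.2 CPM in IMR-32 controls and 6.92, 6.27, 4.07, 7.51 and 8.18 CPM at 5 d, and at 23.7, 23.7, 20.8, 16.2 and 14.6 CPM and 13.7, 13.5, 14.1, 13.9 and 6.34 CPM in SH-SY5Y. NOTCH1 fell in both lines without overlap, with a log2 fold change of -3.52 ± 0.24 (SE) in IMR-32 and -0.75 ± 0.22 (SE) in SH-SY5Y, a difference of -2.77 ± 0.32 (SE, adjusted p = 4.49e-06). HES6, a proneural bHLH factor, fell in IMR-32 only (-1.71 in IMR-32, -0.43 in SH-SY5Y), and the ligand-like DLL3 rose in SH-SY5Y only (-0.48 in IMR-32, 0.51 in SH-SY5Y). DLL1, a ligand chosen after its values were seen, went from 3.09, 3.06, 1.63, 2.8 and 1.67 to 0.465, 0.272, 0.401, 0.329 and 0.336 CPM in IMR-32 and from 0.211, 0.473, 0.521, 0.334 and 0.106 to 0.56, 0.558, 0.628, 0.616 and 0.544 CPM in SH-SY5Y, where it was counted below 1 CPM, and it overlaps a gene on the opposite strand. The count for the NOTCH list lay between 5 and 9 without any 1 library.

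All interferon-response genes that were called had a lower response in IMR-32, but most of the list was not called. Their products answer type I interferon through the factor ISGF3, which binds the interferon-stimulated response element in their promoters. Of 21 members, 9 fell and 4 rose in IMR-32, and 4 fell and 10 rose in SH-SY5Y (medians -0.74 and 0.52). Only 10 of the 21 had a mean of at least 1 CPM in a group of each line, and 4 had a group with no read. With groups of no reads set to a floor of 3 reads, the median difference over the list went from -1.11 to -0.764. The difference was called lower in IMR-32 for 6 (28.6%) and higher for 0, and for between 5 and 8 without any 1 library. USP18, which removes ISG15 from proteins, fell in both lines (-3.998 in IMR-32, -1.69 in SH-SY5Y) from means of 1.33 and 3.57 CPM.

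Levels in this list were low, and 2 members named after their values were seen show both the direction and its limits. ISG15, a ubiquitin-like protein, was counted at 3.01, 4.06, 3.16, 4.3 and 1.03 CPM in IMR-32 controls and 1.51, 1.2, 0.631, 1.21 and 2.8 CPM at 5 d, and at 1.18, 0.631, 1.09, 0.715 and 1.005 CPM and 1.06, 1.17, 1.5, 2.02 and 1.69 CPM in SH-SY5Y. Replicate 5 of IMR-32 went against the other 4, so the groups overlapped, and the difference of -1.72 (adjusted p = 0.0148) was -2.31 without it. IFI6, a mitochondrial protein, was counted at 8.05, 6.26, 8.06, 8.07 and 5.17 CPM and 4.42, 5.67, 4.81, 3.4 and 5.71 CPM in IMR-32 and at 18.4, 19.3, 20.9, 15.2 and 13.4 CPM and 30.1, 26.4, 30.2, 22.4 and 22.2 CPM in SH-SY5Y, where the groups did not overlap. IFI6 fell in IMR-32 and rose in SH-SY5Y (-0.59 in IMR-32, 0.52 in SH-SY5Y), a difference of -1.11 (adjusted p = 9.51e-04). IFIT1 was called too, but its IMR-32 libraries held at most 0.287 CPM.

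The core of the response element, GAAANNGAAA on either strand, was present in the 250 bases before the start of 10 of 15 interferon-response promoters that could be read (66.7%), in 1 of 42 cell division promoters (2.38%) and in 245 of 11563 of all genes tested (2.12%). The last 120 bases before the start are given for the same 2 genes (RefSeq, GRCh38.p14), with matches in capitals.
ISG15 (chr1:1013377-1013496, plus strand): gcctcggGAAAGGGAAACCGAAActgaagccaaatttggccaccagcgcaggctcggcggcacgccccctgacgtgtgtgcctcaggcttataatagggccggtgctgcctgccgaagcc
IFI6 (chr1:27672193-27672312, minus strand): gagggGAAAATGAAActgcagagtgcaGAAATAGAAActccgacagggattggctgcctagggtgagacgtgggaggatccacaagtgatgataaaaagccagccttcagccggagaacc
The matches of ISG15 overlap each other, and IFI6 has 2 that are separate. As with the cell division promoters, the letters describe the sequence and not what was bound.

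Receptors for growth factors differed by receptor. Of 28 neurotrophin, ALK and RET family genes, 3 were higher and 7 lower in IMR-32 (10.7% and 25%). NGFR, the low-affinity neurotrophin receptor p75, was counted at 99.1, 89.7, 132, 119 and 49.5 CPM in IMR-32 controls and 3.61, 5.18, 6.71, 3.84 and 7.23 CPM at 5 d, and at 14.4, 11.8, 9.12, 13.5 and 13.3 CPM and 9.46, 7.81, 6.9, 13.4 and 6.95 CPM in SH-SY5Y. NGFR fell far below its controls in every IMR-32 library, its SH-SY5Y groups overlapped, and the difference was -3.67 ± 0.36 (SE, adjusted p = 7.55e-07). KIT fell in both lines and further in SH-SY5Y (-0.61 in IMR-32, -2.54 in SH-SY5Y), while ALK was not called for a difference (0.63 in IMR-32, 0.19 in SH-SY5Y). Of 16 MAPK feedback genes, 2 were higher, CCND1 and the ETS factor ETV1 (0.16 in IMR-32, -0.86 in SH-SY5Y), and 6 lower (37.5%), and the lower count was 4 without the IMR-32 control of replicate 5. ETV1 lost its call in 16 of the 20 fits with 1 library left out.

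Matrix and TGF-beta genes were lower in IMR-32 more often than higher. Of 36 BMP, TGF-beta and ID genes, 12 (33.3%) were lower and 4 higher, and 7 were higher without the IMR-32 control of replicate 5. TGFB1 was counted at 51.2, 47.9, 38, 51.1 and 49.6 CPM in IMR-32 controls and 28.2, 27.2, 23.6, 26.1 and 60.9 CPM at 5 d, the last of them replicate 5, and at 52, 54.1, 55.1, 34.7 and 33 CPM and 156, 138, 116, 107 and 86.5 CPM in SH-SY5Y. TGFB1 rose in SH-SY5Y without overlap and was not called in IMR-32, a difference of -1.87 ± 0.32 (SE, adjusted p = 2.66e-04), or -2.2 without replicate 5 of IMR-32. The activin subunit INHBA fell in IMR-32 only (-3.999 in IMR-32, -0.45 in SH-SY5Y), the pseudoreceptor BAMBI in SH-SY5Y only (-0.04 in IMR-32, -1.92 in SH-SY5Y), and SMAD9, a BMP effector, moved in opposite directions. SMAD9 was counted at 309.7, 327, 319.6, 334 and 236 and then 447, 498, 469, 510.0 and 459 CPM in IMR-32 and at 362, 324, 309, 316 and 402 and then 232, 208, 158, 200.1 and 222 CPM in SH-SY5Y, a difference of 1.44 ± 0.14 (SE, adjusted p = 6.18e-07).

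Of 54 collagens, laminins and integrins, 17 (31.5%) were lower and 7 (13%) higher in IMR-32, and 4 were higher without IMR-32 replicate 5 at 5 d. COL1A1, a chain of type I collagen (-2.1 in IMR-32, -0.37 in SH-SY5Y), the basement membrane protein NID1 (-3.19 in IMR-32, -0.59 in SH-SY5Y) and the integrin ITGA2 (-2.64 in IMR-32, -0.01 in SH-SY5Y) fell in IMR-32 only. ITGA1, an integrin named after its values were seen, fell in IMR-32 and rose in SH-SY5Y, from 58.5, 65.4, 52.3, 58.9 and 69.4 to 30.8, 22.7, 35.1, 34.7 and 65.5 CPM and from 176, 171, 137, 162 and 169 to 646, 680.4, 447, 452 and 378 CPM, with replicate 5 at 5 d the only IMR-32 library among its controls. ITGA4 fell in both lines and further in SH-SY5Y (-0.83 in IMR-32, -2.13 in SH-SY5Y). The cadherin CDH11, a mesenchymal cadherin, went from 16.7, 19.5, 19.1, 19.2 and 38 to 0.291, 0.109, 0.631, 0.0548 and 3.02 CPM in IMR-32 and from 153, 169.5, 156, 117 and 118 to 343, 211, 125, 144 and 114 CPM in SH-SY5Y. Replicate 5 was the highest in both IMR-32 groups, and the CDH11 difference of -5.1 ± 0.65 (SE, adjusted p = 1.33e-05) was -6.44 without it. The mesenchymal marker sums given above were lower at 5 d than in control in both lines, and their part in these matrix genes was not tested.

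The adrenergic transcription factors differed in few members. Of 16 genes of the core regulatory circuit, 4 were higher in IMR-32 (25%) and 0 lower, with medians of 0.28 and 0.01. HAND2 (0.3 in IMR-32, -0.01 in SH-SY5Y) was not called. GATA3 was past the limits in neither line by itself (0.33 in IMR-32, -0.42 in SH-SY5Y) but differed by 0.75 (adjusted p = 0.00111). SIX3, a homeobox factor, rose from 77.3, 75.1, 73.3, 93.9 and 24.7 to 175, 173, 123, 152 and 111 CPM in IMR-32 and fell from 47.7, 41.6, 43.8, 53.9 and 49.2 to 20.8, 20.5, 22, 29.9 and 34.1 CPM in SH-SY5Y, a difference of 2.02 ± 0.34 (SE, adjusted p = 2.41e-04). The other 2, TBX2 (1.18 in IMR-32, 0.04 in SH-SY5Y) and TFAP2B, were named after their values were seen. TFAP2B had no read in any IMR-32 control, so no fold change is given for it. SIX3 and HAND2 overlap exons on the opposite strand.

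Genes of transmitter synthesis differed in both directions. In the catecholamine list of 12, 3 (25%) were lower in IMR-32, DBH, the vesicular monoamine transporter SLC18A2 (-1.06 in IMR-32, 1.71 in SH-SY5Y, overlapping a gene on the opposite strand) and the amine oxidase MAOA (-0.18 in IMR-32, 0.69 in SH-SY5Y), and 2 (16.7%) were higher, DDC and SLC18A1. DDC, the decarboxylase that makes dopamine, was counted at 43.5, 42.3, 48.5, 43.3 and 13.3 CPM in IMR-32 controls and 80.3, 81.5, 72.3, 70.9 and 37.1 CPM at 5 d, and at 162, 184, 170.0, 172 and 162 CPM and 57.9, 82.6, 119, 147 and 137 CPM in SH-SY5Y. Replicate 5 was the lowest in both IMR-32 groups, and the DDC difference of 1.52 ± 0.4 (SE, adjusted p = 0.00736) was 1.46 without it. SLC18A1 had no read in the IMR-32 controls, so no fold change is given for it. TH, which makes L-DOPA, was scarce in SH-SY5Y (0.349 CPM in control) and was not called (a difference of 2.33, adjusted p = 0.202). Of 15 granins and neuropeptides, 5 (33.3%) were lower and 0 higher. Chromogranin B, CHGB, a core protein of secretory granules, stood at 134, 122, 129, 137 and 73 CPM in IMR-32 controls and 164, 161, 155, 144 and 131 CPM at 5 d, and at 349.6, 582, 399, 376 and 254 CPM and 2239.6, 3089, 3528, 2507 and 1761 CPM in SH-SY5Y. Every SH-SY5Y library at 5 d lay above its controls, the IMR-32 groups did not reach the call, and the difference was -2.35 ± 0.29 (SE, adjusted p = 8.87e-06).

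Of 36 genes of the synaptic vesicle and its release, 20 rose in each line (medians 0.61 and 0.66), 3 fell in IMR-32, and 4 were higher and 7 lower in IMR-32 (11.1% and 19.4%). SYT2, a fast calcium sensor, fell in IMR-32 only (-3.24 in IMR-32, 0.27 in SH-SY5Y), and the vesicle protein SV2C moved in opposite directions (-1.29 in IMR-32, 1.18 in SH-SY5Y). DNM1, the neuronal dynamin, rose in IMR-32 only (0.93 in IMR-32, 0.16 in SH-SY5Y). Of 25 calcium and sodium channels, 14 rose in IMR-32 and 12 rose in SH-SY5Y, and 7 (28%) were higher and 2 lower, with SCN9A (2.73 in IMR-32, 0.74 in SH-SY5Y), CACNA1G (2.45 in IMR-32, 0.65 in SH-SY5Y) and SCN2A (2.38 in IMR-32, 1.08 in SH-SY5Y) leading. The lower count was 5 without replicate 5 of IMR-32 and 1 to 4 with any 1 library left out. Of 31 potassium channels, 6 were higher and 8 lower (19.4% and 25.8%), from KCNMA1 (1.16 in IMR-32, -0.74 in SH-SY5Y) to KCNC4 (-2.31 in IMR-32, 0.73 in SH-SY5Y).

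In the lists of quiescence and of lysosome genes every called difference was lower in IMR-32. Of 18 quiescence and FOXO-linked genes, 10 rose in IMR-32, 14 rose in SH-SY5Y and none fell in either (medians 0.61 and 1.09), and 6 (33.3%) were lower in IMR-32 with 0 higher. KLF9, a Krüppel-like repressor of proliferation, rose in SH-SY5Y only (10.7 to 9.42 CPM in IMR-32, 7.2 to 21.7 CPM in SH-SY5Y). Of 38 lysosome and autophagy genes, 8 (21.1%) were lower and 0 higher, while 12 rose in IMR-32 and 13 rose in SH-SY5Y and the median difference over the list was 0.01. TFEB, the transcription factor of lysosomal genes, stood at 5.44, 5.71, 6.04, 5.39 and 5.06 CPM in IMR-32 controls and 2.33, 1.96, 1.78, 1.1 and 4.42 CPM at 5 d, and at 4.6, 6.84, 5.11, 5.01 and 3.7 CPM and 17, 15.7, 14.5, 10.2 and 8.9996 CPM in SH-SY5Y. TFEB fell in IMR-32 and rose in SH-SY5Y without overlap in either, a difference of -2.6 ± 0.36 (SE, adjusted p = 2.81e-05).

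Among metabolic lists, amino acid and glycolytic genes were higher in IMR-32 more often than lower. Of 32 serine, one-carbon and ATF4 genes, 9 (28.1%) were higher and 2 lower in IMR-32, and with any 1 library left out 7 to 11 were higher and 0 to 2 lower. The amino acid transporters SLC1A4 (42.4 to 45.7 CPM in IMR-32, 34.2 to 8.81 CPM in SH-SY5Y) and SLC7A5 (-0.06 in IMR-32, -1.18 in SH-SY5Y) fell in SH-SY5Y only. Of 38 glycolysis and hypoxia genes, 7 (18.4%) were higher and 3 lower, and 11 were higher without the IMR-32 control of replicate 5. The prolyl hydroxylase EGLN3 (0.2 in IMR-32, -1.7 in SH-SY5Y) and the glycolytic regulators PFKP (0.24 in IMR-32, -1.06 in SH-SY5Y) and PFKFB3 (0.11 in IMR-32, -1.11 in SH-SY5Y) fell in SH-SY5Y only. Of 72 cytosolic ribosomal protein genes, 1 was called, RPL22L1, a paralog of RPL22 (-0.93 in IMR-32, 0.98 in SH-SY5Y), and the nucleolar, mitochondrial ribosomal and respiratory chain lists had at most 4.92% called in either direction.

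Guidance and neurotransmitter receptor genes were called in both directions, at shares of 11.8% to 17.4%. Over all genes tested the shares were 10.8% higher and 10.3% lower. Of 46 axon guidance genes, 7 (15.2%) were higher and 8 (17.4%) lower in IMR-32. Beside NRP1, the netrin receptor UNC5C rose in IMR-32 only (10.2 to 23.3 CPM in IMR-32, 518 to 538 CPM in SH-SY5Y), while ROBO1, the SLIT receptor, fell in IMR-32 only (273 to 126 CPM in IMR-32, 104 to 108 CPM in SH-SY5Y). EFNB2, an ephrin ligand, rose in SH-SY5Y only (-0.65 in IMR-32, 0.77 in SH-SY5Y). Of 34 neurotransmitter receptors, 5 were higher and 4 lower (14.7% and 11.8%), and 7 were lower without the IMR-32 control of replicate 5. Among them were the AMPA receptor subunit GRIA2 (1.3 in IMR-32, 0.05 in SH-SY5Y) and the dopamine receptor DRD2 (17.4 to 3.71 CPM in IMR-32, 24.7 to 27.1 CPM in SH-SY5Y, a difference of -2.31, adjusted p = 7.55e-07). Of 16 retinoid genes, 2 were higher and 4 lower (12.5% and 25%). RARG, a retinoic acid receptor, fell in IMR-32 only (-0.65 in IMR-32, 0.22 in SH-SY5Y), and DHRS3, a retinaldehyde reductase chosen after its values were seen, fell in IMR-32 and rose in SH-SY5Y (7.34 to 0.753 CPM in IMR-32, 1.24 to 6.16 CPM in SH-SY5Y), although its IMR-32 libraries overlapped.

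Genes of cell death and of imprinted growth control made up small lists with uneven counts. Of 14 BCL2 family genes, 4 (28.6%) were lower in IMR-32 and 0 higher. BAK1 (-1.01 in IMR-32, -0.3 in SH-SY5Y) and BCL2L11, which encodes BIM (-0.74 in IMR-32, -0.14 in SH-SY5Y), fell in IMR-32 only, and BOK (14 to 16.3 CPM in IMR-32, 14.7 to 71 CPM in SH-SY5Y) and BMF (-0.16 in IMR-32, 0.55 in SH-SY5Y) rose in SH-SY5Y only. Of 25 p53 targets, 4 (16%) were higher and 0 lower, and 8 were higher without replicate 5 of IMR-32. The oxidoreductase TP53I3 fell in SH-SY5Y only (9.2 to 8.97 CPM in IMR-32, 55.9 to 12.6 CPM in SH-SY5Y). Of 19 oncofetal and imprinted genes, 5 (26.3%) were lower and 1 higher. With H19, MEST fell in IMR-32 only (139.8 to 33 CPM in IMR-32, 3.52 to 3.19 CPM in SH-SY5Y), and the higher gene was NNAT, neuronatin, which fell in SH-SY5Y only (1084 to 999 CPM in IMR-32, 42.8 to 22.3 CPM in SH-SY5Y). TP53I3, MEST and NNAT share exonic bases with genes on the opposite strand.

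Of 25 replication-dependent histone genes, 6 (24%) were lower and 1 (4%) higher in IMR-32, but polyA selection and their near-identical copies make these values uncertain. Of 28 cholesterol genes, 4 (14.3%) were lower and 0 higher, and 11 were lower without replicate 5 of IMR-32. Of 29 NF-kB and secretory genes, 6 (20.7%) were lower and 2 higher, with NFKB1 falling in IMR-32 only (-1.46 in IMR-32, -0.46 in SH-SY5Y) and PLAUR, the urokinase receptor, falling in both lines and further in IMR-32 (-2.79 in IMR-32, -1.1 in SH-SY5Y). Of 24 mesenchymal identity genes, 12 fell in IMR-32 and 14 fell in SH-SY5Y. Of the 24, 2 were higher and 4 lower (8.33% and 16.7%), the lower ones including the receptor PDGFRB (-1.36 in IMR-32, -0.59 in SH-SY5Y). With any 1 library left out, 0 to 4 mesenchymal genes were higher and 2 to 5 lower. Of 12 hedgehog and cilium genes, 2 were higher and 3 lower (16.7% and 25%), and the transcription factor GLI2 fell in SH-SY5Y only (-0.45 in IMR-32, -2.46 in SH-SY5Y).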

How the data were processed

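RNA from 3 neuroblastoma lines was sequenced by the authors from polyA-selected, directional, paired-end libraries. Reads were trimmed with Trim Galore 0.6.4 and counted per gene with STAR on hg19, in version 2.6.1d per the labels, while the study's methods name another 2.6.1 release. No source used here names the strand that was counted. The deposited raw counts of IMR-32 and SH-SY5Y (control and 5 d PB, 20 libraries) were joined by gene symbol, and those of SK-N-BE(2)C and of 24 h PB were fitted separately. The deposited CPM tables, scaled by the authors to library totals, were used to check the counts, and the CPM printed here were computed from the counts and the library totals. The authors' tables of shrunken log2 fold changes and adjusted p-values from DESeq2 1.32.0 were not used.

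Genes were kept by filterByExpr of edgeR 4.0.16 in R 4.3.3 (minimum count 10, minimum total 15, share 0.7), which left 15456 of 29159 genes. Libraries were scaled by TMM, 1 mean was fitted per line and condition, and the contrast (IMR-32 5 d minus control) minus (SH-SY5Y 5 d minus control) was tested with the robust quasi-likelihood F test, 2-sided, with Benjamini-Hochberg adjustment over all genes tested. The standard error was taken as the size of the log2 value over the square root of F. Totals of 16556335 to 23930236 counts limit the precision of genes near 0, and reads carried no molecular identifiers. No pair of replicates was close enough to be 1 library deposited again (chi-square per degree of freedom of at least 4.16). On simulated counts with 200 changed genes, 64.3% of differences of 1 and 92.8% of differences of 2 on the log2 scale were recovered, with 5 false calls. The simulation gave each gene 1 mean over all 20 libraries and placed the changes in the IMR-32 5 d group alone. It held no difference between the lines, no other response to PB and no deviating library, so these rates do not describe the data themselves.

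Genes were named as the 8 largest opposite differences in each direction, the 4 largest of each kind of gene called in 1 line (within 0.25 of 0 in the other) or called in both with different sizes, and up to 3 called members per list and direction, among genes with a mean of at least 1 CPM in at least 1 group of each line and separate libraries where called, plus 17 genes of the cell cycle and the lineage. A few of the genes so picked are not reported here. Other members were chosen after their values were seen, and the text says so or names a whole small count. The comparison, the lists and the members were chosen with earlier results of these data known. Alternatives were other scalings, filters, DESeq2 1.42.0, a fit of all 45 libraries, other limits on size, a replicate block and leaving out libraries, the last for the lists having been added after the data were seen. Gene positions are those of GRCh37, and promoter sequences those of RefSeq (GRCh38.p14).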

Additional observations from a re-analysis of the deposited data

Results flagged for a closer look

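In groups of 5 libraries, 16 of 124 groups held a value far from the other 4 (chance gives about 5 in 100). Replicate 5 of IMR-32 was that value in 13 of them. In the IMR-32 controls it was high for ABCC9 (13.8 CPM), TCF7L1 (17.9 CPM), CDH11 (38.0 CPM) and SRSF1 (816 CPM). It was low there for CHGB (73.0 CPM), SMAD9 (236 CPM), TUBB3 (246 CPM) and DDC (13.3 CPM). At 5 d it was high for TAFA4 (2.13 CPM), TGFB1 (60.9 CPM), CDH11 (3.02 CPM) and ITGA1 (65.5 CPM), and low for DDC (37.1 CPM). The other 3 were TGFB1 in IMR-32 control replicate 3 (38.0 CPM), NOTCH1 in SH-SY5Y replicate 5 at 5 d (6.34 CPM), and IFIT1 in IMR-32 replicate 1 at 5 d (0.0582 CPM, where the other 4 had no read). What sets replicate 5 of IMR-32 apart was not tested.

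The responses of the lines differed by the test of the difference for 3263 genes, and 97 genes rose in IMR-32 and fell in SH-SY5Y while 132 did the reverse. The log2 differences of the leading genes were 4.63 for NRP1, 4.58 for CALB1, 4.25 for PDE7B, 3.87 for MDGA1, 2.80 for KCNJ12, 2.78 for KAZN, 2.73 for COL5A2 and 2.71 for RD3. In the other direction they were -6.27 for H19, -6.06 for ABCC9, -5.004 for TAFA4, -4.63 for ERBB4, -4.60 for TMEM63A, -4.37 for SLC2A4, -4.35 for EVA1B and -3.80 for HAPLN4.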

How the results depend on the processing

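Under other scalings, filters, DESeq2 and a fit of all 45 libraries, 87.1% to 97.3% of the 3263 differences were called again in the same direction and 0 reversed. Scaling by library size alone moved the median difference from 0.01 to -0.03 and the share of called differences that were higher in IMR-32 to 44.8%. With any 1 library left out, 2970 to 3733 differences were called, 1502 to 1886 higher and 1437 to 1847 lower in IMR-32. Opposite responses then numbered 195 to 276, 79 to 112 up in IMR-32 and 110 to 171 down. IMR-32 then had 4706 to 5504 calls and SH-SY5Y 4776 to 5450. A stricter filter, which tested fewer genes, left 64 opposite genes up in IMR-32, and without replicate 5 of IMR-32 in both groups 200 were down in IMR-32, for which the cause was not tested. With no limit on size, 652 genes were opposite (275 up and 377 down in IMR-32), and 8454 and 8632 genes were called in IMR-32 and SH-SY5Y. With a limit of 1, 1547 differences were called (736 higher, 811 lower), 72 genes were opposite (21 up, 51 down in IMR-32), and IMR-32 and SH-SY5Y had 2264 and 2229 calls.

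Same-numbered control and 5 d libraries deviated together with correlations of 0.0933 to 0.445 in IMR-32 and 0.0789 to 0.198 in SH-SY5Y. A library correlated best with its own number in 4 of 5 cases in IMR-32 and in 5 of 5 in SH-SY5Y, a hint from the data only, and the numbers were not taken to pair the samples. With the replicate number as a block, 3630 differences were called (1909 higher, 1721 lower), 263 genes were opposite (120 up, 143 down in IMR-32), and IMR-32 and SH-SY5Y had 5192 and 5317 calls. The block also moved the higher counts of some lists, from 5 to 10 for E2F, cyclin and CDK control, 7 to 12 for glycolysis and hypoxia, and 2 to 5 for mesenchymal identity, whose lower count went from 4 to 6. Among small higher counts, it moved the BCL2 family from 0 to 2, WNT signalling from 1 to 4 and the catecholamine list from 2 to 4. Of 212 genes picked by the naming rule, 189 kept their call or its absence without each library, and 22 lost it without at least 1, among them ETV1, PLK3, TWIST1, HSP90AA1 and HIF1A. Depth limits the genes near 0 in a line, such as CALB1 and DLL1 in SH-SY5Y and IFIT1 in IMR-32.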
